A study of Mus musculus with 32 samples.

Results

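The genes of cholesterol synthesis, sterol sensing and sterol transport were followed in whole lungs of C57BL/6 mouse pups. The 27 genes were picked by name from 46165 gene records and described in all 32 libraries, 4 in each of 8 groups. All 27 were found in the files and all passed the filter on low counts. They comprise 9 genes of the mevalonate and isoprenoid steps, 10 of the steps between squalene and cholesterol, 4 of sterol sensing and regulation, and 4 of transport, uptake and efflux. At postnatal day 14 there were 5 groups. Daily saline pups received 25 µl per g into the peritoneum on each day between days 1 and 13. Scrambled 1 and scrambled 2 pups received a non-targeting locked nucleic acid inhibitor, 10 mg per kg in nuclease-free water, on days 1 and 3. Water pups received 10 µl per g of that water on the same days, and untreated pups received nothing. At postnatal day 6 there were 3 groups, each given 25 µl into the peritoneum on days 1 and 2. They received 0.4 mg of tamoxifen in Miglyol, Miglyol alone (a triglyceride oil, spelled Migloyl in some labels), or saline. Tamoxifen is an oestrogen receptor ligand used to activate inducible Cre recombinases. The pups are described as C57BL/6 with no transgene named. The series addresses what control interventions by themselves do to gene expression in the developing lung.

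Cells make cholesterol from acetyl-CoA through mevalonate, farnesyl diphosphate, squalene and lanosterol. When sterol in the endoplasmic reticulum is low, Scap escorts the transcription factor precursor made by Srebf2 to the Golgi, where it is cut, and the released factor switches on the synthesis genes. Insig proteins hold Scap back when sterol is plentiful, and liver X receptors, activated by oxysterols, raise the efflux pumps Abca1 and Abcg1 and the ubiquitin ligase Mylip. In lung, alveolar type 2 cells use cholesterol in surfactant and macrophages clear it.

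Libraries held 7918537 to 12443221 exon reads, and 87.5% to 90.9% of these were unique. Per gene, the chi-square statistic between replicates of a group was 2.38 to 16.6, so every library was kept as a separate sample. The labels do not tie each sample to a separate animal, and a p-value here reflects variation among libraries, part of which may be technical. Levels are given as CPM, exon counts relative to TMM-scaled library size over all 32 libraries, unless stated otherwise. In whole lung, fewer cells of a type and less RNA per cell cannot be told apart. Several members share sequence with other loci. Only 4.27% of the reads of Idi1, 10.2% of those of Insig1, 25.5% of those of Acat2 and 26.4% of those of Lss were unique. For Fdps the share was 60.8% and for Fdft1 73.2%, and for the other 21 members it was at least 94.2%. Fdft1 also overlaps Ctsb on the opposite strand by 774 bases, and Ctsb had 109813 exon reads over all libraries against 9135 for Fdft1. Libraries were prepared with a stranded kit, but the strand setting used in counting is not given in the sources used here.

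TPM values computed by the authors are per length, and their order depends on the annotated exon length of each gene. The highest mean level over the 32 libraries was that of Hmgcs1, at 84.0 ± 11.7 TPM (SD). Hmgcs1 makes HMG-CoA at the entry to the mevalonate branch. Next came Srebf2 at 57.5 ± 10.3 TPM, Fdps, the farnesyl diphosphate synthase, at 56.8 ± 12.0, the sterol carrier Stard4 at 54.0 ± 6.52, and Insig1 at 52.3 ± 6.41 TPM. These last 4 lay closer together than their SDs. The lowest TPM levels were those of Hsd17b7, a sterol ketone reductase, at 7.65 ± 1.12 TPM, and Lss, the lanosterol synthase, at 7.37 ± 1.18 TPM. The remaining enzymes lay between 13.7 TPM for Dhcr7, which encodes a terminal reductase of the pathway, and 39.3 TPM for the isopentenyl diphosphate isomerase gene Idi1. Annotated exon length was 7436 bases for Lss and 5581 for Hsd17b7, against 1479 for Tm7sf2. In CPM at day 14, Lss ran from 15.8 to 24.7 and Tm7sf2 from 5.83 to 11.6, so the lowest ranks depend on length. Most reads of Idi1, Insig1 and Lss were not unique.

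Promoters are shown because the synthesis genes are known to be switched on by the Srebf2 product together with NF-Y and Sp1. A part of these factors in the differences after Miglyol was not tested. Of the 27 members, 22 have a window in the RefSeq promoter table of GRCm38.p6, which runs 250 bases before to 50 bases after each start, and these 22 have 28 windows. The other 5, Fdft1, Fdps, Sqle, Stard4 and Abcg1, have no window there and were not searched. On both strands, the sterol response element core TCACNCCAC was found in 1 member, Hmgcs1. That is 3.57% of the members' windows, against 1.24% of all 32851 windows, which were not limited to genes with reads in these lungs. Its shorter form TCACNCCA, which every core match also holds, was found in Hmgcs1, Msmo1 and Srebf2, which is 10.7% of the members' windows against 4.36% of all windows. The NF-Y box CCAAT lay in 67.9% of the members' windows against 37.4% of all, and the Sp1 box GGGCGG in 82.1% against 35.7%. Capitals below mark TCACNCCA with its core form, and CCAAT or its reverse complement. Hmgcs1 (chr13:119690101-119690400, + strand), Msmo1 (chr8:64733529-64733828, - strand) and Srebf2 (chr15:82147019-82147318, + strand) are the members with a match to the shorter form, each read 5′ to 3′ on its own strand.
Hmgcs1: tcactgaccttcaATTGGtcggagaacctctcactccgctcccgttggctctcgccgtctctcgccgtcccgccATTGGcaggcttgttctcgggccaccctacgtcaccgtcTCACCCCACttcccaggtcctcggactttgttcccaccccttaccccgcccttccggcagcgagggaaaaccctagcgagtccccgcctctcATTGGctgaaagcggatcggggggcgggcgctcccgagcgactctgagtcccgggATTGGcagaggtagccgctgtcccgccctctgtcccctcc
Msmo1: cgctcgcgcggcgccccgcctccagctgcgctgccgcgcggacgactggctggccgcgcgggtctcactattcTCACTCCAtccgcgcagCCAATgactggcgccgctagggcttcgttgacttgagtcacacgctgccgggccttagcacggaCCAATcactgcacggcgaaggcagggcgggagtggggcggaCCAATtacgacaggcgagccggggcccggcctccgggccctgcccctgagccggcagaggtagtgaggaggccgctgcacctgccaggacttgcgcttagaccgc
Srebf2: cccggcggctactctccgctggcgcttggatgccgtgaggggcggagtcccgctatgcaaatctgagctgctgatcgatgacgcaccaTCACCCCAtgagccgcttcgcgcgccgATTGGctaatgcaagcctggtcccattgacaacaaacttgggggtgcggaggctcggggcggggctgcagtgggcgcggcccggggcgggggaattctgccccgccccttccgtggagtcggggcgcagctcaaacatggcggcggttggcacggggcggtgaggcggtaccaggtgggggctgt
A match is a description of these letters and not evidence of binding. Of these 3 genes, Msmo1 alone was called in Miglyol against saline lungs, with a log2 fold change of 0.47, while Hmgcs1 lay at 0.19 and Srebf2 at -0.02.

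Miglyol was the vehicle of tamoxifen, and its comparison with saline given on the same days asks what the oil did. Several genes of cholesterol synthesis were higher in Miglyol lungs. Of the 27 members 7 rose and 0 fell at an adjusted p under 0.05 (edgeR quasi-likelihood test, Benjamini-Hochberg over all 14107 genes tested), where 3.33% of all genes rose and 7.29% fell. They were Insig1 and 6 enzymes, Idi1, Fdps and Fdft1 in the mevalonate and isoprenoid steps and Cyp51, Tm7sf2 and Msmo1 after squalene. Of the 19 enzymes 18 had a log2 fold change above 0, the exception being Ggps1, which leads away from sterols to geranylgeranyl diphosphate. Over all 27 members the median log2 fold change was 0.19, and 20 lay above 0. Over all genes tested the median was 0.02, and 7624 of 14107 lay above 0. The CPM ranges of the groups did not overlap, with Miglyol above saline, for 9 members, and for 9.68% of all genes. The 9 were the 7 called genes and Pmvk and Nsdhl.

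Insig1, the sterol sensor that retains Scap (gene ID 231070, chromosome 5, 28071412 to 28078662), stood at 67.7, 66.6, 65.98 and 56.0 CPM in Miglyol lungs, against 50.9, 44.9, 44.7 and 48.9 CPM in saline lungs. The groups did not overlap, although Miglyol replicate 4 was well below the other Miglyol libraries. The log2 fold change was 0.43 (SE 0.08), 1.35-fold, with an edgeR adjusted p of 0.00770. Counting unique reads alone gave Insig1 0.20 (SE 0.16, edgeR adjusted p = 0.433), so that the call rests on reads that also match elsewhere. Its paralogue Insig2 had 46.2, 42.4, 45.1 and 46.3 CPM after Miglyol, against 36.5, 40.5, 40.7 and 44.0 CPM after saline, with overlapping groups (0.15, SE 0.08, edgeR adjusted p = 0.206). Srebf2, which encodes the transcription factor precursor, was not called. It averaged 151 ± 6.54 CPM in Miglyol and 153 ± 21.2 CPM in saline lungs (SD, n = 4 each), a log2 difference of -0.02 whose interval of 2 SE either way was -0.17 to 0.14. For Scap, the escort protein, the difference was -0.07, with an interval of -0.24 to 0.10.

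Among the early enzymes, Fdps (gene ID 110196, chromosome 3, 89093588 to 89101967) had 46.6, 46.1, 43.3 and 45.3 CPM in Miglyol lungs, against 40.8, 32.3, 30.6 and 34.3 CPM in saline lungs. All 4 Miglyol libraries were above all 4 saline libraries, of which replicate 1 was the highest. Its log2 fold change was 0.39 (SE 0.08, edgeR adjusted p = 0.0122). Idi1, which isomerises isopentenyl diphosphate, had 67.3, 69.6, 66.1 and 59.7 CPM after Miglyol, against 51.9, 54.3, 46.9 and 53.4 CPM after saline, with no overlap (0.34, SE 0.09, edgeR adjusted p = 0.0255). Fdft1, the squalene synthase, had 38.5, 44.4, 39.2 and 41.6 CPM after Miglyol, against 34.9, 35.7, 30.5 and 33.3 CPM after saline (0.28, SE 0.08, edgeR adjusted p = 0.0385). Its groups did not overlap either, by a margin smaller than the spread within each. In unique reads Idi1 lay at 0.19 (SE 0.22, edgeR adjusted p = 0.590) and Fdft1 at 0.23 (SE 0.09, edgeR adjusted p = 0.0869), while Fdps kept its call at 0.38 (SE 0.09, edgeR adjusted p = 0.0130).

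The other early enzymes were not called. Hmgcs1 had 163, 158, 150 and 141 CPM in Miglyol lungs, against 146, 127, 127 and 136 CPM in saline lungs, overlapping through saline replicate 1 and Miglyol replicate 4 (0.19, SE 0.06, edgeR adjusted p = 0.0618). Pmvk, the phosphomevalonate kinase, lay at 0.24 (SE 0.09, edgeR adjusted p = 0.0914) and Mvd, the decarboxylase that follows it, at 0.29 (SE 0.14). The thiolase gene Acat2 lay at 0.15 (SE 0.08) and Mvk, the mevalonate kinase, at 0.12 (SE 0.10). Ggps1 had a mean of 59.1 ± 4.41 CPM in Miglyol and 60.8 ± 2.62 CPM in saline lungs (SD, n = 4 each), a log2 difference of -0.05 with an interval of -0.19 to 0.09.

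After squalene, the largest difference was that of Tm7sf2, a sterol reductase (gene ID 73166, chromosome 19, 6062821 to 6067850). Its levels were low, 9.95, 10.7, 9.22 and 12.3 CPM in Miglyol lungs, against 8.14, 5.70, 6.86 and 6.18 CPM in saline lungs, and each library held only 46 to 127 of its reads. The groups did not overlap, and the log2 fold change was 0.65 (SE 0.13), 1.57-fold, with an edgeR adjusted p of 0.0103. Msmo1, the oxidase that removes methyl groups from lanosterol derivatives (gene ID 66234, chromosome 8, 64718145 to 64733578), had 34.2, 36.2, 31.7 and 34.7 CPM after Miglyol, against 26.3, 22.9, 23.2 and 25.7 CPM after saline. The lowest Miglyol library was above the highest saline library (0.47, SE 0.09, 1.39-fold, edgeR adjusted p = 0.00954). Cyp51, the lanosterol demethylase, had 51.3, 52.5, 46.1 and 47.1 CPM after Miglyol, against 43.3, 39.9, 34.4 and 43.2 CPM after saline, again without overlap (0.29, SE 0.08, edgeR adjusted p = 0.0295). Every read of these 3 genes was unique.

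Sqle, the squalene epoxidase, had 51.2, 52.2, 42.3 and 45.6 CPM in Miglyol lungs, against 41.4, 42.9, 35.9 and 42.8 CPM in saline lungs, and the groups touched (0.23, SE 0.08, edgeR adjusted p = 0.0827). Nsdhl, a sterol decarboxylase, lay at 0.21 (SE 0.09) with groups that did not overlap, and Dhcr7 at 0.21 (SE 0.10) and the isomerase Ebp at 0.20 (SE 0.10) with groups that did. Sc5d, a sterol desaturase, lay at 0.11 (SE 0.08), Lss at 0.07 (SE 0.10) and Hsd17b7 at 0.01 (SE 0.12). These 6 had edgeR adjusted p-values between 0.130 and 0.948.

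The 4 genes of transport, uptake and efflux all had log2 fold changes below 0, and 0 of them was called. The largest was that of Abca1, the pump that loads cholesterol onto apolipoprotein acceptors (gene ID 11303, chromosome 4, 53030789 to 53159988). It had 79.4, 91.6, 85.4 and 71.9 CPM in Miglyol lungs, against 85.4, 96.5, 118 and 121 CPM in saline lungs. Saline replicates 2, 3 and 4 were above every Miglyol library, and saline replicate 1 lay among them (-0.37, SE 0.12, edgeR adjusted p = 0.0672). Mylip, which marks lipoprotein receptors for breakdown, lay at -0.19 (SE 0.11), Stard4 at -0.06 (SE 0.06), and the second efflux pump Abcg1 at -0.06 (SE 0.10).

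**Figure D1:**
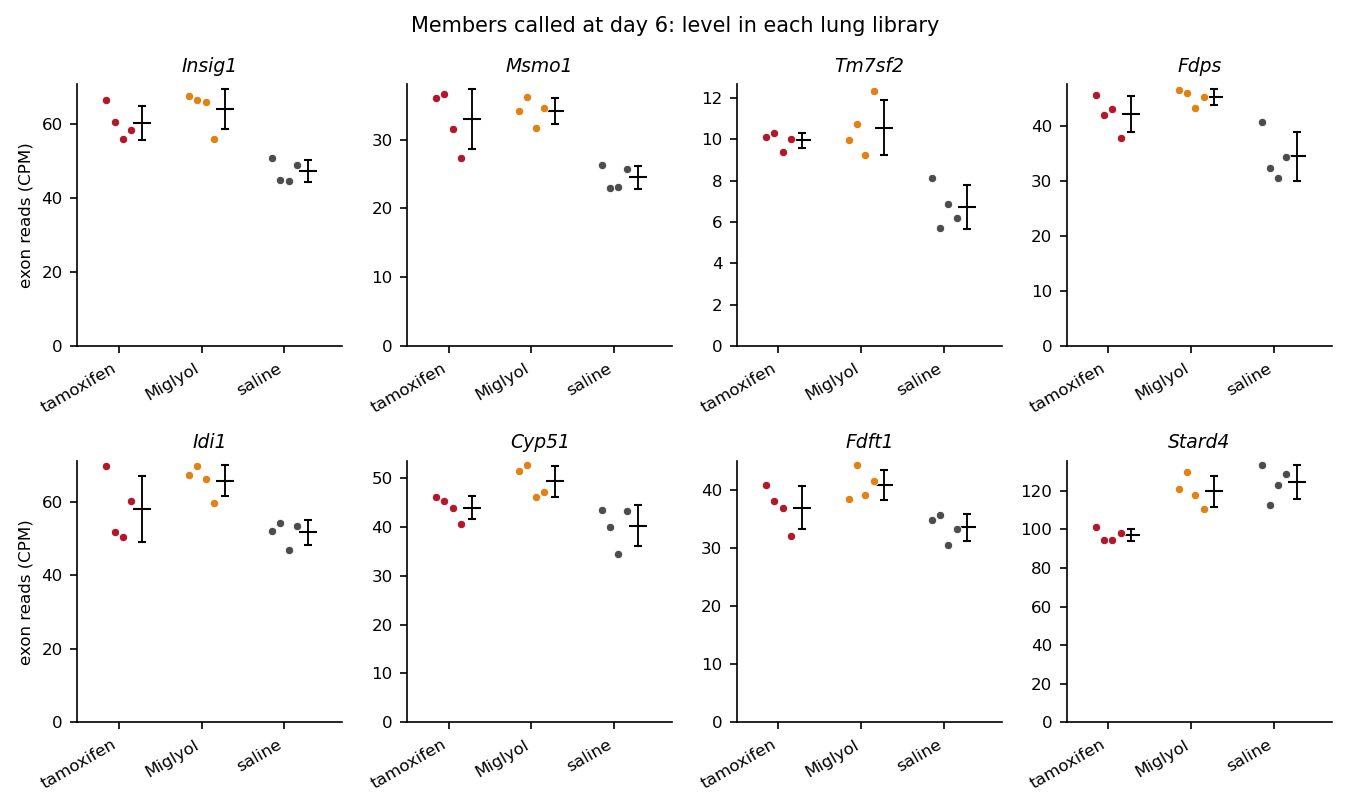
Exon CPM (y axis, from 0) of the 7 members called for Miglyol against saline and of Stard4, in tamoxifen, Miglyol and saline lungs at day 6. Each dot is a library, and the bar beside the dots gives the mean ± SD of 4. Miglyol lies above saline without overlap in the first 7 panels, and Stard4 is lowest after tamoxifen, at 94.4 to 101.2 CPM.

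**Figure D2:**
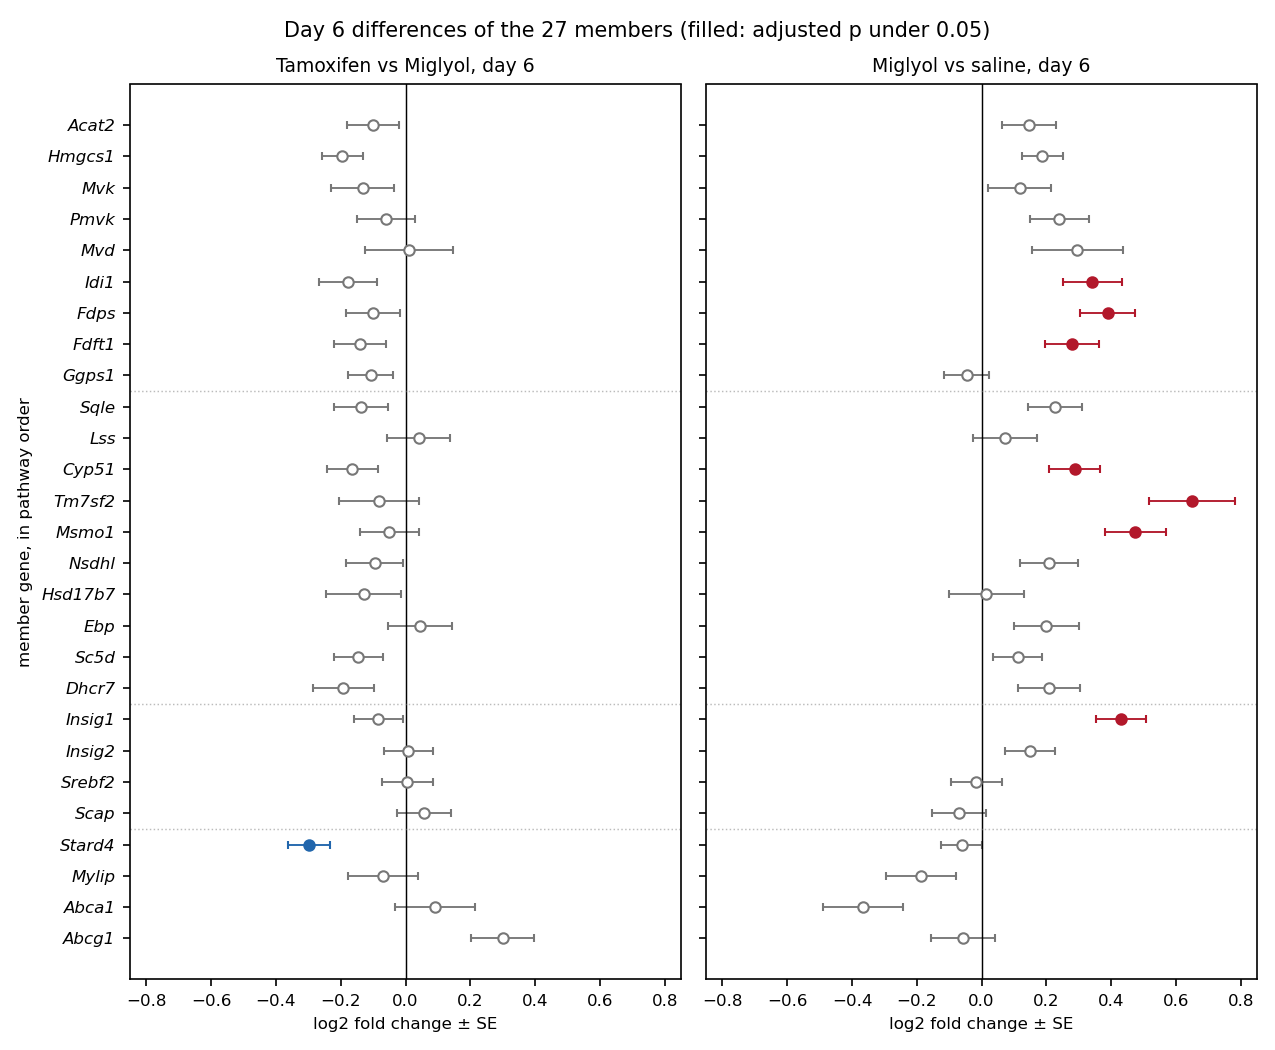
Log2 fold change ± SE (x axis) of all 27 members in pathway order (y axis), for tamoxifen against Miglyol on the left and Miglyol against saline on the right. Filled points have an adjusted p under 0.05, and dotted lines separate the 4 roles. On the right 7 members are filled above 0, and on the left Stard4 alone is filled, at -0.30.

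Reads counted in introns of the same genes served as a second readout in 26 members. Idi1, with 1 to 17 intron reads a library, was not tested. Mylip stood apart, with 373 to 4357 intron reads a library against 168 to 559 exon reads over all 32 libraries, and its intron CPM ran from 226 to 1345 among the saline libraries alone, so its intron reads are not taken as a measure of its unspliced RNA. In Miglyol against saline 2 members rose and 1 fell, where 4.25% of all 14149 genes tested rose and 6.2% fell. Fdps had 40.7, 41.0, 41.9 and 33.2 intron CPM in Miglyol lungs, against 31.4, 25.9, 18.7 and 18.7 intron CPM in saline lungs. The groups did not overlap (0.75, SE 0.17, edgeR adjusted p = 0.00959). Sqle had 46.4, 48.0, 43.6 and 43.2 intron CPM after Miglyol, against 35.47, 29.05, 29.95 and 30.54 intron CPM after saline, also without overlap (0.54, SE 0.14, edgeR adjusted p = 0.0198). Abca1 fell, with 25.6, 29.7, 35.6 and 21.9 intron CPM after Miglyol, against 34.3, 52.4, 41.2 and 52.9 intron CPM after saline, where Miglyol replicate 3 reached into the saline range (-0.68, SE 0.19, edgeR adjusted p = 0.0265). Besides Fdps, 5 of the members called in exon reads could be tested in intron reads, and none of them passed. Their intron log2 fold changes were all above 0, at 0.22 for Insig1, 0.24 for Fdft1, 0.33 for Tm7sf2, 0.48 for Msmo1 and 0.54 for Cyp51, with edgeR adjusted p-values between 0.125 and 0.427. At an unadjusted p under 0.05 there were 2 of these 5. Nsdhl lay below 0 in intron reads, at -0.50 (SE 0.24, edgeR adjusted p = 0.183). The number of members called in intron reads was 1 without Miglyol replicate 1 or saline replicate 2, and 0 without saline replicate 4. Of 8 fits that left out 1 library, Fdps passed in 7, and Sqle and Abca1 in 4 each.

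**Figure D3:**
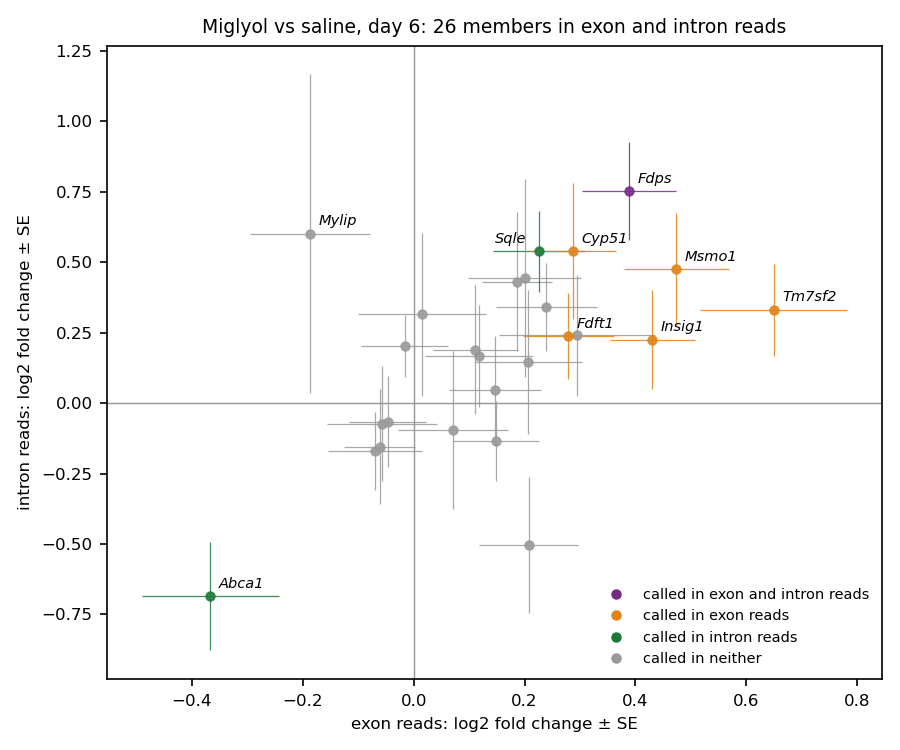
Log2 fold change ± SE of Miglyol against saline at day 6 in exon reads (x axis) and intron reads (y axis), 1 point for each of 26 members. Fdps, at 0.39 and 0.75, was called in both readouts, Sqle and Abca1 in intron reads, and the remaining coloured genes in exon reads.

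The share of intron reads differed between these groups, 13.1 ± 1.25% in Miglyol and 15.1 ± 0.898% in saline lungs (SD, n = 4 each). With it as a covariate in edgeR 0 members were called, and of all genes 2 were called and 1582 had an unadjusted p under 0.05. The log2 fold changes of the 7 members then ran from 0.19 for Fdft1 to 0.58 for Tm7sf2, all above 0, and Insig1 came closest at 0.48 (SE 0.09, edgeR adjusted p = 0.0663). Saline replicate 3 was the lowest saline library for 14 of 19 enzymes, and without it 3 members were called, Insig1, Msmo1 and Tm7sf2, which also passed in each of the other 7 fits that left out 1 library. Of 8 such fits Fdps passed in 7, Idi1 in 3, Cyp51 in 2 and Fdft1 in 1. The count was 4 without Miglyol replicate 1, Miglyol replicate 2 or saline replicate 4, and 9 without saline replicate 1.

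Some cell type markers also differed in this comparison. The summed level of 9 alveolar type 2 markers was 15027 to 18662 CPM in Miglyol lungs and 13492 to 15078 CPM in saline lungs, a narrow overlap. Sftpc, a surfactant protein gene, was called at 0.32 (edgeR adjusted p = 0.0389). Of 9 alveolar macrophage markers, Chil3 was called at 0.95 and Fabp4 at 0.85. Their list had overlapping sums of 121 to 137 CPM in Miglyol and 105 to 142 CPM in saline lungs. Lipid-laden macrophage markers also overlapped, at 791 to 838 CPM in Miglyol and 786 to 877 CPM in saline lungs. None of the 9 markers in any of these lists was at 0 in these groups. Circadian clock markers summed to 612 to 658 CPM in Miglyol and 674 to 685 CPM in saline lungs, without overlap. The part of these lists in the differences of the cholesterol genes was not tested. Of 6 steroidogenic markers, Cyp11b1 and Hsd3b1 were at 0 in every day 6 library, and the others had reads in each day 6 group. The list summed to 8.07 to 10.1 CPM in Miglyol and 6.81 to 9.98 CPM in saline lungs.

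Tamoxifen in Miglyol against Miglyol alone asks what the drug added. Stard4 was lower after tamoxifen, and no enzyme was called. Of the 27 members 0 rose and 1 fell (edgeR quasi-likelihood test, Benjamini-Hochberg over 14107 genes), where 3.71% of all genes rose and 1.96% fell. Stard4, which carries sterol between membranes, had 101.2, 94.4, 94.6 and 98.1 CPM in tamoxifen lungs, against 121, 129.5, 118 and 110.4 CPM in Miglyol lungs. The highest tamoxifen library was below the lowest Miglyol library. The log2 fold change was -0.30 (SE 0.06), 0.813-fold, with an edgeR adjusted p of 0.00940, and it lay between -0.33 and -0.26 and stayed called in all 8 fits that left out 1 library. The number of members called was 2 without tamoxifen replicate 2, tamoxifen replicate 4 or Miglyol replicate 4, and 2 with the intron share as a covariate, which was 13.3 ± 1.33% in tamoxifen and 13.1 ± 1.25% in Miglyol lungs (SD, n = 4 each).

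For the 7 members called for Miglyol against saline, intervals of 2 SE either way were also taken for tamoxifen against Miglyol. They ran from -0.23 to 0.07 for Insig1, from -0.23 to 0.13 for Msmo1, from -0.33 to 0.17 for Tm7sf2 and from -0.27 to 0.06 for Fdps. For Fdft1 the interval was -0.30 to 0.02. Those of Cyp51, -0.32 to -0.01, and Idi1, -0.36 to -4.22e-05, lay below 0, though neither gene was called. Of the 19 enzymes 16 had log2 fold changes below 0, and the median over all 27 members was -0.10, against -0.00 over all genes. The CPM groups did not overlap for 4 members lower after tamoxifen, Hmgcs1, Cyp51, Dhcr7 and Stard4, and for 1 higher, Abcg1, against 5.51% and 5.63% of all genes. Hmgcs1 had 140.6, 128.6, 135.5 and 128.7 CPM in tamoxifen lungs, against 162.6, 158.1, 150.4 and 140.7 CPM in Miglyol lungs, where tamoxifen replicate 1 and Miglyol replicate 4 nearly met (-0.20, SE 0.06, edgeR adjusted p = 0.0768). Abcg1, an efflux pump, had 60.2, 48.7, 64.7 and 50.01 CPM in tamoxifen lungs, against 45.7, 42.2, 48.0 and 46.3 CPM in Miglyol lungs. All 4 tamoxifen libraries were higher, 2 of them by a small margin (0.30, SE 0.10, edgeR adjusted p = 0.0813). In intron reads 0 of 26 members were called by edgeR, where 2.76% of all genes were, and 2 members, Mylip and Insig1, had an unadjusted edgeR p under 0.05. Mylip had 256.35, 232.4, 375.43 and 335.79 intron CPM in tamoxifen lungs, against 1888, 1475, 1068 and 434 intron CPM in Miglyol lungs. The groups did not overlap, and the Miglyol libraries spread widely (-2.02, SE 0.59, edgeR adjusted p = 0.134). DESeq2 called Mylip alone in these reads (-2.02, SE 0.56, DESeq2 adjusted p = 0.0168). As stated above, the intron reads of Mylip are not taken as a measure of its unspliced RNA. Alveolar macrophage markers summed to 182 to 256 CPM in tamoxifen and 121 to 137 CPM in Miglyol lungs, and lipid-laden macrophage markers to 941 to 1155 CPM in tamoxifen and 791 to 838 CPM in Miglyol lungs. None of the 9 markers of either list was at 0, and their part in the values of Stard4 and Abcg1 was not tested. Circadian clock markers summed to 668 to 739 CPM in tamoxifen and 612 to 658 CPM in Miglyol lungs, and their part was not tested.

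Against saline, tamoxifen in Miglyol showed 4 of the same members higher and Stard4 lower, where 11.3% of all genes rose and 12.3% fell. The members' shares were 14.8% higher, near that of all genes, and 3.70% lower, below it. This comparison shares its tamoxifen and saline libraries with the other day 6 comparisons. Insig1 rose by 0.35 (SE 0.08, edgeR adjusted p = 0.00434), with 66.6, 60.6, 56.0 and 58.3 CPM in tamoxifen lungs, all above saline. Msmo1 had 36.1, 36.7, 31.6 and 27.4 CPM in tamoxifen lungs, also above every saline library (0.42, SE 0.09, edgeR adjusted p = 0.00435). Tm7sf2 rose by 0.57 (SE 0.13, edgeR adjusted p = 0.00585) and Fdps by 0.29 (SE 0.08, edgeR adjusted p = 0.0209), Fdps with overlapping groups. Stard4 fell by 0.36 on the log2 scale (SE 0.06, edgeR adjusted p = 0.000961). Idi1 at 0.16, Cyp51 at 0.12 and Fdft1 at 0.14 were not called here. Without tamoxifen replicate 4 the number of members called was 11 in place of 5, in unique reads it was 3, without Insig1 at 0.16 (edgeR adjusted p = 0.503) and Fdps at 0.22 (edgeR adjusted p = 0.0739), and with the intron share as a covariate it was 2, Insig1 and Stard4. Fdps passed in 4 of 8 fits that left out 1 library. That share was 13.3 ± 1.33% in tamoxifen and 15.1 ± 0.898% in saline lungs (SD, n = 4 each). Alveolar type 2 markers summed to 15775 to 19025 CPM in tamoxifen and 13492 to 15078 CPM in saline lungs, and alveolar macrophage markers to 182 to 256 CPM in tamoxifen and 105 to 142 CPM in saline lungs. Lipid-laden macrophage markers summed to 941 to 1155 CPM in tamoxifen and 786 to 877 CPM in saline lungs. The part of these markers in the members' differences was not tested.

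In intron reads, tamoxifen against saline had 4 members higher and 2 lower, where 10.8% of all genes rose and 12.5% fell. The members' shares were 15.4% higher and 7.69% lower, near those of all genes. Fdps had 46.7, 34.9, 35.6 and 40.8 intron CPM in tamoxifen lungs, above every saline library (0.76, SE 0.17, edgeR adjusted p = 0.00287). Sqle had 53.8, 48.0, 51.4 and 38.5 intron CPM in tamoxifen lungs, also without overlap with saline (0.61, SE 0.14, edgeR adjusted p = 0.00301). Insig1 at 0.60 and Pmvk at 0.53 were higher too. Abca1 had 17.1, 18.7, 26.4 and 32.6 intron CPM in tamoxifen lungs, below every saline library (-0.91, SE 0.20, edgeR adjusted p = 0.00171). Nsdhl lay at -0.87 (SE 0.25, edgeR adjusted p = 0.0144) and passed in 6 of 8 fits that left out 1 library. In exon reads Nsdhl lay above 0, at 0.11 (SE 0.09), and was not called. Sqle at 0.09, Pmvk at 0.18 and Abca1 at -0.28 were not called in exon reads either.

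Other lists of sterol and lipid genes were counted in the same fits. In Miglyol against saline, where 3.33% of all genes rose and 7.29% fell, 0 of 18 fatty acid synthesis genes, 0 of 9 liver X receptor genes and targets and 0 of 17 sterol storage and transport genes were called. Of 6 accessory genes Tmem97, a sterol-binding membrane protein, rose by 0.35 (edgeR adjusted p = 0.0331). Of 11 genes that process or turn over the sterol regulators 2 fell, Mbtps1, the protease that makes the first cut in the transcription factor precursor, by 0.23 and Erlin1 by 0.21, and 0 rose. Of 12 genes of isoprenoid branches 1 fell, Pggt1b, a subunit of a protein prenyltransferase, by 0.24. In tamoxifen against Miglyol, where 3.71% of all genes rose and 1.96% fell, Fasn, the fatty acid synthase, rose by 0.46 as the one call among 18 genes of its list. Among sterol storage and transport genes Npc2, which binds cholesterol in lysosomes, rose by 0.39 and Nceh1, a cholesteryl ester hydrolase, by 0.43, 2 of 17 with 0 lower. Of 9 liver X receptor genes and targets 1 rose, Smpdl3a, a phosphodiesterase, by 0.22.

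Tamoxifen against saline had calls in all 6 lists, where 11.3% of all genes rose and 12.3% fell. As 3343 of all 14107 genes tested were called, calls in every list are not particular to sterol and lipid genes. Of 17 sterol storage and transport genes 4 rose and 0 fell, Npc2 by 0.51, Nceh1 by 0.43, and the lipid transfer genes Stard10 by 0.33 and Stard5 by 0.32. Of 9 liver X receptor genes and targets 2 rose and 0 fell, Smpdl3a by 0.33 and Nr1h2, a liver X receptor gene, by 0.25. Of 18 fatty acid synthesis genes 2 rose, Mid1ip1 by 0.20 and Me1, the malic enzyme gene, by 0.18, and 1 fell, the desaturase gene Fads2, by 0.38 on the log2 scale. Of 11 genes that process or turn over the sterol regulators 0 rose and 2 fell, Erlin1 by 0.35 and Mbtps1 by 0.23. Of 12 isoprenoid genes Rabggta rose by 0.33 and Pggt1b fell by 0.30. Of 6 accessory genes Por, the reductase that passes electrons to microsomal enzymes, rose by 0.21 and Cyb5r3 fell by 0.25.

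At day 14 no member was called in any of 5 comparisons, by edgeR, DESeq2 or limma-voom. The shares of all genes called by edgeR were 0.233% for daily saline against untreated, 0.0494% for water against untreated, 2.74% for daily saline against water, 0.12% for scrambled 1 against water and 0% for scrambled 2 against water. At an unadjusted edgeR p under 0.05 there were 0 members for daily saline and 4 for water against untreated, and 3 for daily saline, 3 for scrambled 1 and 2 for scrambled 2 against water. The comparisons with water share its 4 libraries. Skeletal muscle markers summed to 327 CPM in the highest water library, against a water median of 8.56 CPM, and adipose markers to 314 CPM against 21.6 CPM. The part of these markers in the members' values was not tested. Every member lay between -0.12 and 0.16 on the log2 scale for daily saline against untreated, and between -0.16 and 0.35 for water against untreated.

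Insig1 was the member with the smallest unadjusted p at this age. It had 49.8, 54.0, 42.3 and 47.0 CPM in scrambled 1 lungs and 45.9, 53.2, 54.0 and 47.1 CPM in scrambled 2 lungs, against 59.8, 53.6, 61.4 and 60.0 CPM in water lungs. Water replicate 2 reached into both scrambled groups, and the log2 differences were -0.28 (SE 0.08, edgeR adjusted p = 0.179) for scrambled 1 and -0.23 (SE 0.08, edgeR adjusted p = 0.920) for scrambled 2. Acat2 had 23.1, 21.0, 32.0 and 27.2 CPM in water lungs, against 20.1, 21.4, 20.7 and 21.4 CPM in untreated lungs, an overlap made by water replicate 2 (0.31, SE 0.11, edgeR adjusted p = 0.400). Groups did not overlap for Mvd and Tm7sf2 in water against untreated, both higher, where 2.12% of all genes were higher without overlap.

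**Figure D4:**
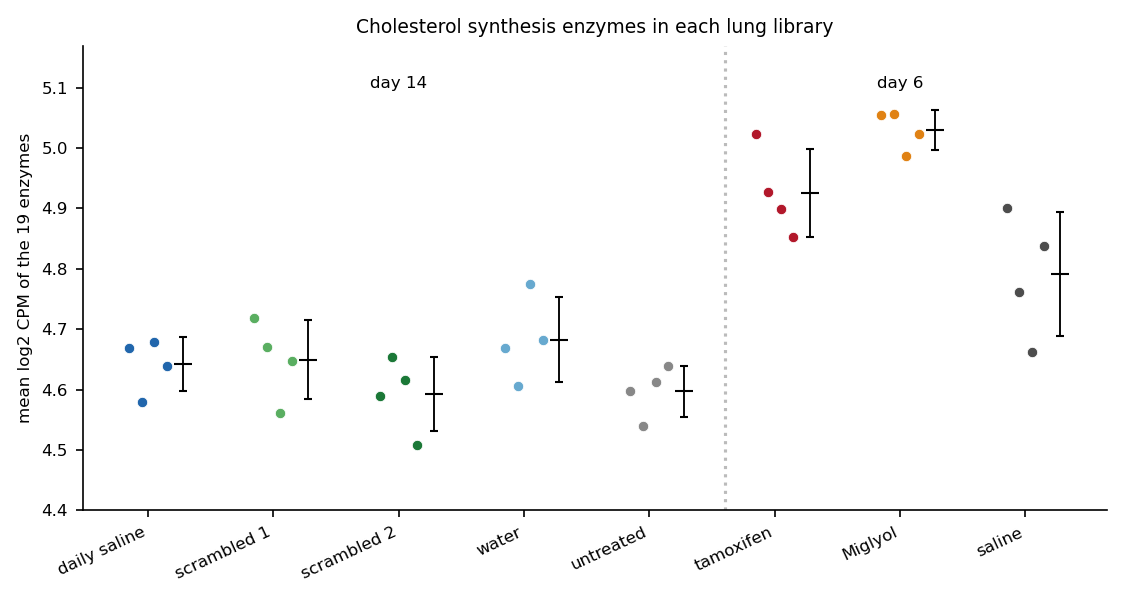
Mean log2 CPM of the 19 enzymes in each library (y axis) by group (x axis), with dots for libraries and bars for the mean ± SD of 4. Miglyol libraries lie between 4.99 and 5.06 and saline libraries at day 6 between 4.66 and 4.90, while the day 14 libraries lie between 4.51 and 4.77.

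The 20 libraries of day 14 were also set against the 12 of day 6. Over all libraries most synthesis enzymes were lower at day 14, and efflux genes and Mylip were higher. Of 27 members 8 rose and 17 fell (edgeR quasi-likelihood test, Benjamini-Hochberg over 14406 genes), where 30% of all genes rose and 31.3% fell. The members' shares were 29.6% higher, near that of all genes, and 63.0% lower. Age cannot be told apart from the treatments, the injection schedule and the anaesthetic, which also differed. Of the 9 mevalonate and isoprenoid genes 8 fell and Ggps1 rose. After squalene 7 of 10 fell, while Sc5d and Ebp rose and Tm7sf2 was not called.

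Sqle had a lowest, median and highest level of 20.8, 26.6 and 30.3 CPM at day 14, against 35.9, 42.8 and 52.2 CPM at day 6, with no overlap (-0.75, SE 0.05, edgeR adjusted p = 1.13e-14). Cyp51 had 19.1, 27.5 and 30.3 CPM at day 14, against 34.4, 44.5 and 52.5 CPM at day 6 (-0.74, SE 0.05, edgeR adjusted p = 1.52e-15). Idi1 had 28.1, 36.6 and 43.0 CPM at day 14, against 46.9, 57.0 and 69.7 CPM at day 6 (-0.69, SE 0.05, edgeR adjusted p = 2.09e-13). All 3 enzymes were lower in every day 14 library than in every day 6 library, and so were Hmgcs1 at -0.34 and Srebf2 at -0.47. Srebf2 had 100.3, 110.3 and 122 CPM at day 14, against 126, 153 and 177 CPM at day 6 (edgeR adjusted p = 3.46e-13). The 5 genes lower without overlap compare with 4.8% of all genes.

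Mylip had a lowest, median and highest level of 40.6, 51.1 and 59.6 CPM at day 14, against 16.1, 23.2 and 26.1 CPM at day 6 (1.16, SE 0.05, 2.23-fold, edgeR adjusted p = 3.78e-20). Abca1 had 141, 161 and 183 CPM at day 14, against 71.9, 87.8 and 121 CPM at day 6 (0.82, SE 0.05, 1.77-fold, edgeR adjusted p = 9.47e-15). Sc5d, which acts near the end of synthesis, had 56.9, 64.1 and 69.9 CPM at day 14, against 37.7, 42.9 and 48.7 CPM at day 6 (0.58, SE 0.04, edgeR adjusted p = 3.52e-16). These 3 were higher in every day 14 library than in every day 6 library, where 4.65% of all genes were. Smaller rises were those of Insig2 at 0.26, Ggps1 at 0.24, Abcg1 at 0.22, Scap at 0.19 and Ebp at 0.13. Stard4 was not called, at 0.04 (SE 0.04, edgeR adjusted p = 0.396).

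**Figure D5:**
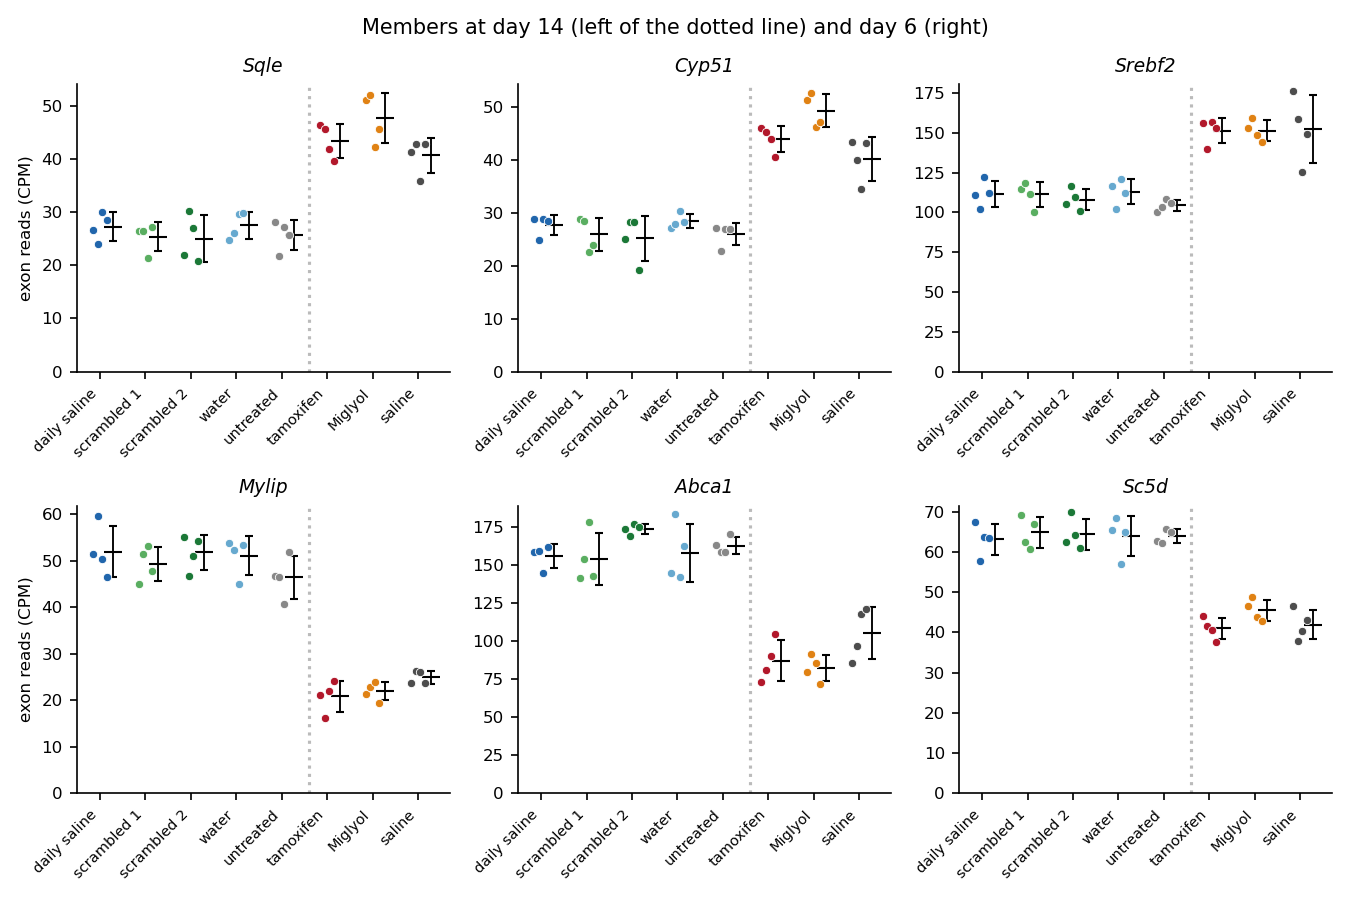
Exon CPM (y axis, from 0) of 6 members by group (x axis), with the 5 groups of day 14 left of the dotted line and the 3 of day 6 right of it, each dot a library and bars the mean ± SD of 4. Sqle, Cyp51 and Srebf2 are lower in every day 14 library, and Mylip, Abca1 and Sc5d are higher in every one.

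With untreated lungs of day 14 and saline lungs of day 6 alone, 16 members were called, 7 higher and 9 lower, and 5271 of all 13798 genes tested were called, or 38.2%. With 9 members of any role lower, most of the 19 enzymes were not called lower in this subset. Sqle then lay at -0.67, Cyp51 at -0.64, Mylip at 0.90 and Abca1 at 0.62, all still called. Insig1 lay at -0.10 (SE 0.04, edgeR adjusted p = 0.0344) over all libraries and lay at 0.20 (SE 0.08, edgeR adjusted p = 0.0402) in this subset, and Msmo1, at -0.33 over all libraries, lay at -0.03 there (edgeR adjusted p = 0.834). All 10 cell cycle markers were lower at day 14, with summed levels of 304 to 477 CPM at day 14 and 987 to 1501 CPM at day 6, and their part in the fall of the enzymes was not tested. Lipid-laden macrophage markers summed to 1262 to 1537 CPM at day 14 and 786 to 1155 CPM at day 6, with 3 of 9 higher and 5 lower. Myelin and nerve markers summed to 1017 to 1305 CPM at day 14 and 670 to 877 CPM at day 6, with 2 of 7 higher and 0 lower. Of the adipose markers tested 5 of 6 rose, and of the circadian clock markers 10 of 13, with 0 lower in either list. Adipose markers summed to 6.65 to 314 CPM at day 14 and 3.84 to 11.1 CPM at day 6. The highest value was that of a water library, where the water median was 21.6 CPM. The part of these lists in the rises of Abca1 and Mylip was not tested. Among other lists, where 30% of all genes rose and 31.3% fell, 6 of 9 liver X receptor genes and targets rose, among them Pltp at 0.81 and Apoc1 at 1.11, and 1 fell. Of 18 sterol storage and transport genes 4 rose, among them Cyp27a1, which makes an oxysterol, at 1.57, and 7 fell.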

How the data were processed

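Messenger RNA of 32 lung samples was sequenced from stranded libraries, per the labels' protocols, with bcl2fastq 2.0 named in the submitters' processing notes. No label names the aligner, genome build, strand setting or handling of multi-mapped reads. Deposited tables hold, per gene, total and unique exon read counts, total and unique intron read counts, and TPM values computed by the authors. Of the gene IDs 43003 were found in RefSeq of GRCm38.p6, and 97.4% of these start within 5 kb of it. Deposited exon counts were tested with edgeR 4.0.16 (R 4.3.3; filterByExpr, TMM, quasi-likelihood test, Benjamini-Hochberg over all genes tested, threshold 0.05), fitted per age, or over all 32 libraries for age, and intron counts likewise at day 6. DESeq2 1.42.0, limma-voom (limma 3.58.1), unique reads, other scaling and filters, covariates, a replicate block and leaving out each library were alternatives. The fit was tested on simulated data. Promoters were searched in Python 3.11.15. All members are reported. Of other genes, up to 4 called genes of each list with the smallest adjusted p could be named. Members and lists were chosen with earlier results of these data known. Some genes of the pathway are not reported here.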

Additional observations from a re-analysis of the deposited data

Results flagged for a closer look

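In 297 groups of 4 libraries, 15 had 1 library far from the other 3 by Dixon's criterion, and chance alone flags about 1 in 20, or 14.85. At day 6, Insig1 was low in Miglyol replicate 4, at 55.994 CPM against 65.98 to 67.68 CPM in the other Miglyol libraries. Dhcr7 was low in tamoxifen replicate 3, at 17.379 CPM against 19.504 to 19.894 CPM, and Ggps1 in saline replicate 2, at 56.871 CPM against 61.68 to 62.427 CPM.

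In intron reads, Hmgcs1 was high in tamoxifen replicate 1, at 34.849 CPM against 21.631 to 23.854 CPM. Miglyol replicate 4 was low for Fdps, at 33.202 CPM against 40.726 to 41.886 CPM, and for Abcg1, at 17.265 CPM against 26.862 to 28.071 CPM.

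At day 14, Hmgcs1 was high in daily saline replicate 1, at 120.25 CPM against 110.11 to 110.91 CPM, and in water replicate 3, at 123.34 CPM against 109.23 to 110.98 CPM. Cyp51 was low in daily saline replicate 2, at 24.824 CPM against 28.358 to 28.859 CPM, and in untreated replicate 2, at 22.769 CPM against 26.813 to 27.108 CPM. Sqle was low in scrambled 1 replicate 3, at 21.464 CPM against 26.559 to 27.158 CPM. High libraries were scrambled 1 replicate 4 for Dhcr7, at 17.703 CPM against 15.437 to 15.561 CPM, and daily saline replicate 4 for Insig2, at 57.822 CPM against 50.926 to 51.936 CPM. Water replicate 2 was high for Ggps1, at 73.729 CPM against 62.632 to 64.128 CPM, and untreated replicate 4 for Lss, at 24.685 CPM against 18.043 to 18.563 CPM.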

How the results depend on the processing

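Of the values of single genes under other settings 356 kept their direction and side of the threshold, 29 lost the call and 1 reversed. Leaving out 1 library kept 141 and lost 35 at day 6, a count without the age comparison. For age, Insig1 passed in 24 of 32 such fits and every other called member in all 32. With the intron share as a covariate the members called were 2 for tamoxifen against Miglyol, 0 for Miglyol against saline and 2 for tamoxifen against saline. Unique reads gave 3 for tamoxifen against saline. DESeq2 gave 1 for tamoxifen against Miglyol in intron reads, Mylip, whose intron reads are not taken as a measure of unspliced RNA. Age had 16 in untreated and saline lungs alone, where Insig1 reversed to 0.20. The causes were not tested. Leaving out 1 library gave 1 to 2 members for tamoxifen against Miglyol, 3 to 9 for Miglyol against saline, 4 to 11 for tamoxifen against saline and 24 to 25 for age. In intron reads it gave 0 to 3 for Miglyol against saline and 5 to 7 for tamoxifen against saline. Replicate numbers were not taken to pair samples, as in none of 8 comparisons did all 4 same-numbered pairs correlate over 0.1. Pairs ran from -0.42 to 0.49, and 3 of 4 were over 0.1 for daily saline against untreated and for scrambled 2 against water. With the replicate block 4 members were called for Miglyol against saline, Insig1, Msmo1, Tm7sf2 and Fdps. Over all genes that comparison had 1498 calls, against 461 with the block, 2 with the intron share, 976 with Xist as a covariate and 2573 with its 2 groups alone. Tm7sf2 had 46 to 127 reads a library.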
